A study of Mus musculus with 4 samples.

Results

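The cyclin-dependent kinase (CDK) inhibitors described here are 7 genes, taken by symbol from the 32285 genes of the count matrices. Cdkn1a, Cdkn1b and Cdkn1c form the Cip/Kip family, and Cdkn2a, Cdkn2b, Cdkn2c and Cdkn2d form the INK4 family. Their transcripts were followed by cell cycle phase in 4 single-cell RNA libraries of splenic CD8+ T cells of the genotype gBT-I.CD45.1 tg, whose transgenic receptor recognises a peptide of herpes simplex virus. All cultures were activated with peptide-pulsed B6 splenocytes and LPS and were grown in recombinant human IL-2. Butyrate cultures received 0.5 mM sodium butyrate from day 3 to day 5 and control cultures received PBS, and on day 6 viable cells positive for CD8 and Vα2 were purified by sorting and put into droplets. Each of 2 mice gave 1 control and 1 butyrate culture, so each group held 2 libraries, all of batch 1, and libraries with the same replicate number came from 1 mouse. The age of the mice was not given in the sources used here. Butyrate is a short-chain fatty acid that also inhibits histone deacetylases.

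CDKs bound to cyclins phosphorylate the retinoblastoma protein and its relatives, which releases E2F factors and lets a cell enter S phase. Proteins of the INK4 family bind the CDK partners of D-type cyclins and keep those cyclins away, whereas proteins of the Cip/Kip family bind complete cyclin-CDK complexes, above all those of the S phase cyclins. In T cells the Cdkn1b protein, p27, is high in resting cells and is removed after activation, and the Cdkn1a protein, p21, restrains the cycling of activated cells. Histone deacetylase inhibitors are known to induce Cdkn1a in many cell types.

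A unique molecular identifier (UMI) marks 1 captured transcript, and these libraries were read from the 3′ end of transcripts. Library totals ran from 64388093 to 76522004 UMIs, with 2059 to 2664 cells kept per library at medians of 20494 to 24816 UMIs, and 7 to 11 kept barcodes per library also occurred among the cells of another library. The 7 CD8 T cell markers summed to between 2772 and 3075 CPM (UMIs scaled to a common library total of 1e6) in the 4 libraries, and none was absent. The B cell, myeloid and dendritic lists summed to 136 and 138, 1.87 and 2.38, and 1.41 and 2.11 CPM in the control libraries, and to 48.0 and 48.3, 13.2 and 14.6, and 7.30 and 8.31 CPM in the butyrate libraries. The CD4 or regulatory T cell list summed to 66.6 and 62.0 CPM in control and 89.2 and 108 CPM in butyrate libraries, with Cd4 itself at no more than 0.625 CPM, and the NK cell list to 92.7 and 123 CPM against 135 and 164 CPM. Among the NK genes Tyrobp went from 2.99 and 2.16 CPM to 33.9 and 40.3 CPM, and Ncr1 was at no more than 0.0298 CPM. The part of these lists in the results was not tested. The B cell defining gene Pax5 and the myeloid genes C1qa and Adgre1 had no UMI in any library. Other myeloid genes rose, Cd68 from 1.71 and 2.07 to 9.42 and 10.3 CPM and Itgam from 0.147 and 0.312 to 3.76 and 4.28 CPM. In the B cell list Cd79b rose from 6.22 and 5.71 to 7.94 and 8.89 CPM, and Ighm fell from 129 and 133 to 40.0 and 39.3 CPM.

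Each cell of at least 8000 UMIs was thinned to 8000 and called G1, S or G2M from S and G2M marker genes, none of which is a CDK inhibitor. Kept cells with fewer UMIs, 71 and 112 in control and 54 and 68 with butyrate, had no phase. Cells called G1 were low for both sets of genes and can include resting cells. They made up 15.4 and 15.0% of the control cells with a phase and 14.3 and 16.3% of such butyrate cells. S calls made up 20.3 and 22.1% against 34.1 and 32.0%, and G2M calls 64.2 and 62.9% against 51.6 and 51.8%. The G1 calls did not hold equivalent cells in both groups. Their median depth in control was 12333 and 11992 UMIs, against 18039 and 16993 UMIs with butyrate, and within them 36 of 42 tested S score genes were higher and 1 was lower under butyrate, with a median log2 fold change of 1.02. The G2M calls differed as well. Within them 6 of 54 tested G2M score genes were higher and 44 lower under butyrate (median -0.46), where 69.3% of all genes passed. Within S cells 10 of these genes were higher and 21 lower (median -0.14), where 57.5% of all genes passed. The part of these differences in the shares of phases and in the results by phase below was not tested.

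UMIs summed over all kept cells of a library were compared between groups with edgeR's quasi-likelihood test, with an adjusted p (Benjamini-Hochberg over all tested genes) under 0.05 as the threshold. Cdkn1a, Cdkn1c, Cdkn2a and Cdkn2d rose under butyrate, Cdkn1b and Cdkn2c fell, and Cdkn2b did not pass the test. That is 6 of 7 members, where 71.8% of the 13487 genes tested passed, with 36% higher and 35.7% lower, so the count alone does not set the members apart. The median log2 fold change of the 7 was 0.33 and that of all genes was -0.0079. Scaling by library totals in place of TMM factors moved the median of all genes to -0.21, with 3395 genes higher and 6710 lower, and left the calls and directions of these 6 members as they were. With 2 cultures a group, edgeR borrows its estimate of spread largely from other genes, and the p-values hold for these cultures only.

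**Figure D1:**
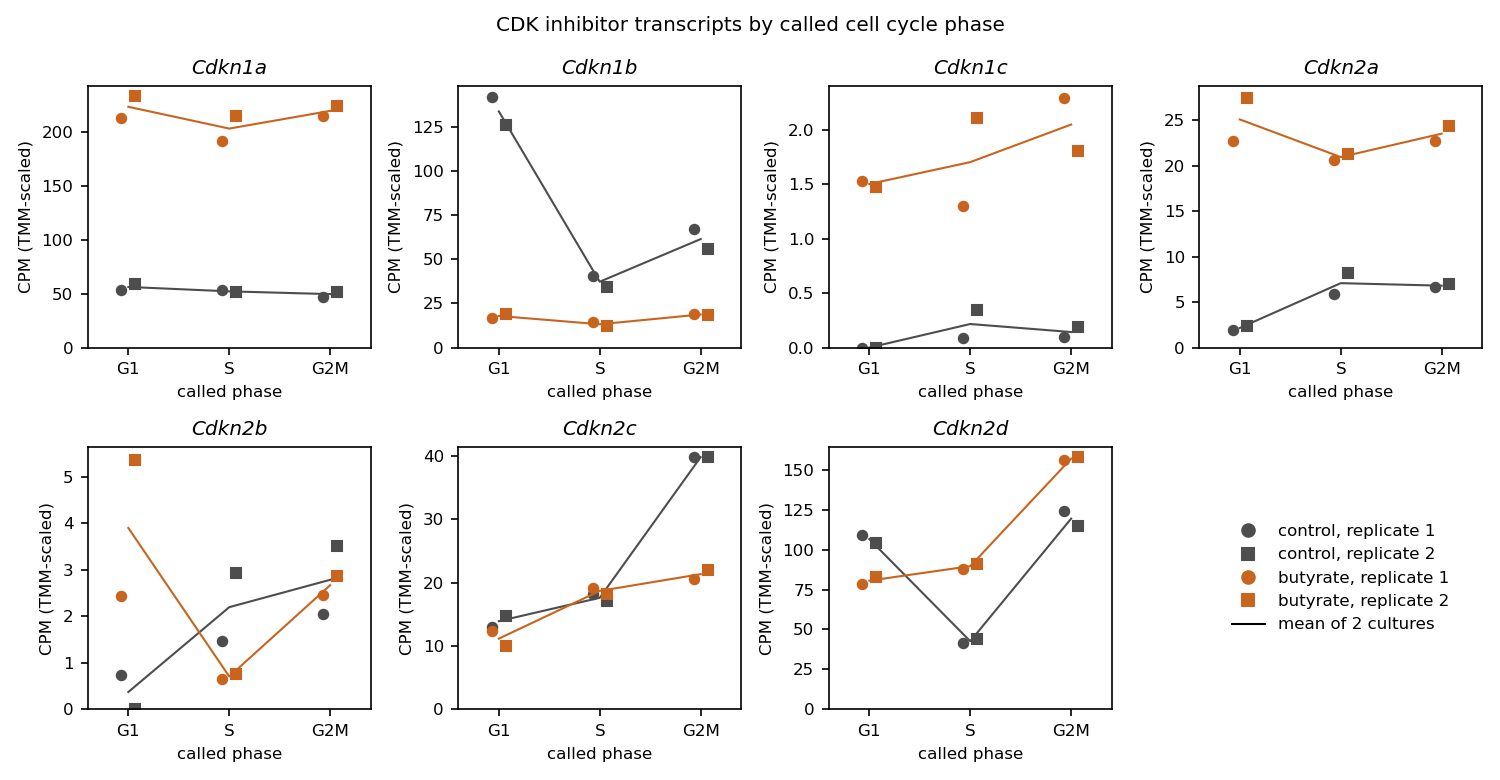
TMM-scaled level in CPM (vertical axes, linear, each from 0) of the 7 inhibitor genes in cells called G1, S or G2M (horizontal axes), with 1 point per culture and lines through the means of the 2 cultures of a group. Butyrate points of Cdkn1a lie between 191 and 233 CPM in every phase, above all control points, and the control G1 points of Cdkn1b at 142 and 126 CPM stand above every other Cdkn1b point.

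Cdkn1a (ENSMUSG00000023067, GRCm38 chromosome 17, 29090976 to 29100727, plus strand) encodes p21. Its level was 49.99 and 53.3 CPM in the control cultures and 212 and 228 CPM in the butyrate cultures. The groups did not overlap. The means were 51.7 ± 2.36 and 220.1 ± 11.3 CPM (SD, n = 2), and edgeR put the log2 fold change at 2.09 (SE 0.05, adjusted p = 1.34e-13).

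The rise of Cdkn1a was of like size in the 3 phases. In G1 cells its level went from 53.04 and 59.4 CPM in control to 213 and 233 CPM under butyrate. In S cells it went from 52.99 and 51.2 CPM to 191 and 215 CPM, and in G2M cells from 47.2 and 51.9 CPM to 214 and 224 CPM. In CPM, phase made little difference beside treatment: the control levels spanned 47.2 to 59.4 CPM over all phases and the butyrate levels 191 to 233 CPM. Against G1, edgeR put control G2M cells at -0.18 (adjusted p = 0.0245) and butyrate S cells at -0.14 (adjusted p = 0.00298) on the log2 scale. These calls were kept under 4 and 5 of 9 alternatives. The log2 fold changes within phases were 2.02 (SE 0.09) in G1, 1.98 (SE 0.06) in S and 2.14 (SE 0.05) in G2M cells, each past the edgeR threshold. The change in S minus that in G1 was -0.02 (95% interval -0.19 to 0.16, adjusted p = 0.91 in edgeR's interaction test), and the change in G2M minus that in G1 was 0.16 (-0.0002 to 0.32, adjusted p = 0.119). Among all genes, 38% passed the first of these interaction tests and 37.6% the second. Without the 5% of cells with the most UMIs the G2M minus G1 difference was 0.26 and passed (adjusted p = 0.00834).

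The Cdkn1a rise was spread over many cells. After thinning to 8000 UMIs, a Cdkn1a UMI was found in 24.6% (95% exact binomial interval 22.7 to 26.6) and 26.1% (24.4 to 27.9) of control cells. Under butyrate it was found in 63.7% (61.8 to 65.6) and 66.3% (64.4 to 68.1) of cells. Cells with 4 or more UMIs were 1.31 and 1.67% of all in control and rose to 12.9 and 13.8% under butyrate. The 2 groups did not overlap in either measure, and with 2 libraries against 2 the smallest p an exact permutation test allows is 0.333, which is the p of this difference. Without thinning the shares were 43.9 and 42.6% against 85.8 and 84.9%. In thinned control cells the share was 16.9 and 17.9% in G1, 27.5 and 27.5% in S and 25.5 and 27.6% in G2M. Under butyrate it was 56.8 and 60.9%, 61.6 and 65.2%, and 67.0 and 68.7%, in the same order. Before thinning, mean Cdkn1a UMIs per cell went from 0.704 and 0.794 in control G1 to 1.49 and 1.58 in control G2M cells. Under butyrate they went from 3.90 and 4.12 to 6.47 and 6.56. Control G1 cells were thus lowest per cell, though not in CPM. The intervals cover counting error only. A sort for CD8+ T cells leaves no cell type without Cdkn1a to measure free RNA in. Empty droplets (10 to 100 UMIs) gave 44.6 and 46.0 CPM in control and 135 and 146 CPM in butyrate libraries, per total UMIs, so their free RNA also differed between groups. On the same scale kept cells had 53.3 and 57.5 CPM in control and 198 and 213 CPM under butyrate.

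**Figure D2:**
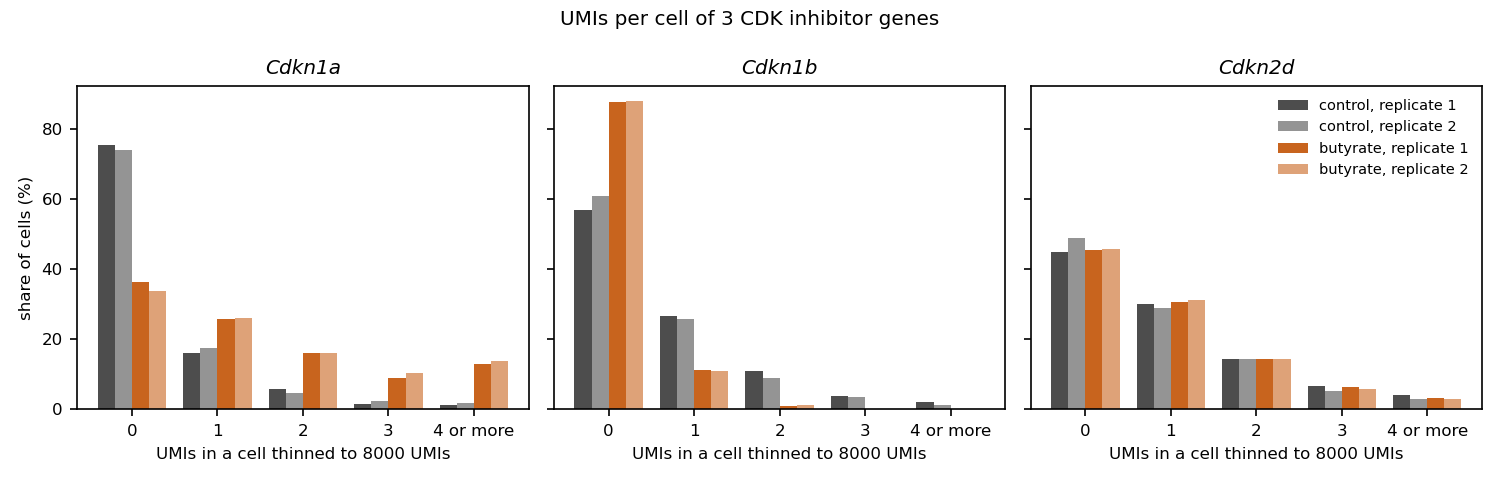
Share of cells in percent (vertical axis) by the number of UMIs of Cdkn1a, Cdkn1b and Cdkn2d in a cell thinned to 8000 UMIs (horizontal axes), with 1 bar per library. Cells without a Cdkn1a UMI fall from 75.4 and 73.9% in control to 36.3 and 33.7% under butyrate, the bars of Cdkn1b shift the other way, and the share of cells without a Cdkn2d UMI overlaps between groups.

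Cdkn1b (ENSMUSG00000003031, chromosome 6, 134920401 to 134925513, plus strand) encodes p27, the other main Cip/Kip inhibitor of T cells. Its level was 70.3 and 58.7 CPM in the control cultures and 17.9 and 17.4 CPM in the butyrate cultures, so every butyrate value lay below every control value. The means were 64.5 ± 8.17 and 17.6 ± 0.299 CPM (SD, n = 2), and the log2 fold change was -1.87 (SE 0.09, edgeR adjusted p = 2.83e-07).

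In control cultures Cdkn1b depended on phase, and under butyrate it hardly did. Its control level was 142 and 126 CPM in G1 cells, 40.3 and 34.3 CPM in S cells and 67.2 and 55.7 CPM in G2M cells. G1 cells were thus highest and S cells lowest, with no overlap between the 3 phases. Relative to G1 the control level was lower by a log2 fold change of -1.85 (SE 0.07) in S and -1.13 (SE 0.06) in G2M cells (edgeR adjusted p = 8.04e-37 and 3.95e-29), where 61.5 and 61.2% of all genes passed. The butyrate levels were 16.8 and 19.1 CPM in G1, 14.5 and 11.96 CPM in S and 18.9 and 18.6 CPM in G2M cells. Only S cells differed there from G1 in edgeR (-0.44, SE 0.12, adjusted p = 0.00114, and 0.382 without butyrate replicate 2), and the G2M minus G1 difference was 0.06 (95% interval -0.14 to 0.26, adjusted p = 0.678). In those contrasts within butyrate cultures 38 and 43.7% of all genes passed.

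The fall of Cdkn1b was therefore largest in G1 cells. Its log2 fold change under butyrate was -2.86 (SE 0.11) in G1, -1.47 (SE 0.10) in S and -1.72 (SE 0.09) in G2M cells. The change in S exceeded that in G1 by 1.40 (SE 0.13) and the change in G2M exceeded it by 1.19 (SE 0.11), with edgeR adjusted p of 5.34e-15 and 8.68e-15. Cells were also grouped by UMIs of Mki67 and Top2a, which mark cycling cells and both belong to the G2M score genes. In cells without a Mki67 or Top2a UMI, Cdkn1b was 101 and 89.0 CPM in control and 13.9 and 17.7 CPM under butyrate, per total UMIs. With a UMI of only 1 of these genes it was 62.8 and 55.0 against 11.6 and 11.2 CPM. With UMIs of both it was 72.3 and 60.1 against 18.1 and 17.1 CPM. The difference in change between these states was not tested.

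Counted per cell and not per total RNA, the control phases were ordered otherwise. Before thinning, control G1 cells held a mean of 1.88 and 1.68 Cdkn1b UMIs per cell, S cells 1.09 and 0.905, and G2M cells 2.13 and 1.70. G2M cells held more than G1 cells within each control culture, though barely in replicate 2, and their values overlapped across cultures. The high G1 level in CPM thus stands beside a lower total of UMIs in those cells. Butyrate cells held 0.306 and 0.336 UMIs in G1, 0.338 and 0.267 in S and 0.570 and 0.543 in G2M, below every control value in each phase. After thinning, 61.9 and 59.4% of control G1 cells and 11.4 and 15.2% of butyrate G1 cells had a Cdkn1b UMI.

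**Figure D3:**
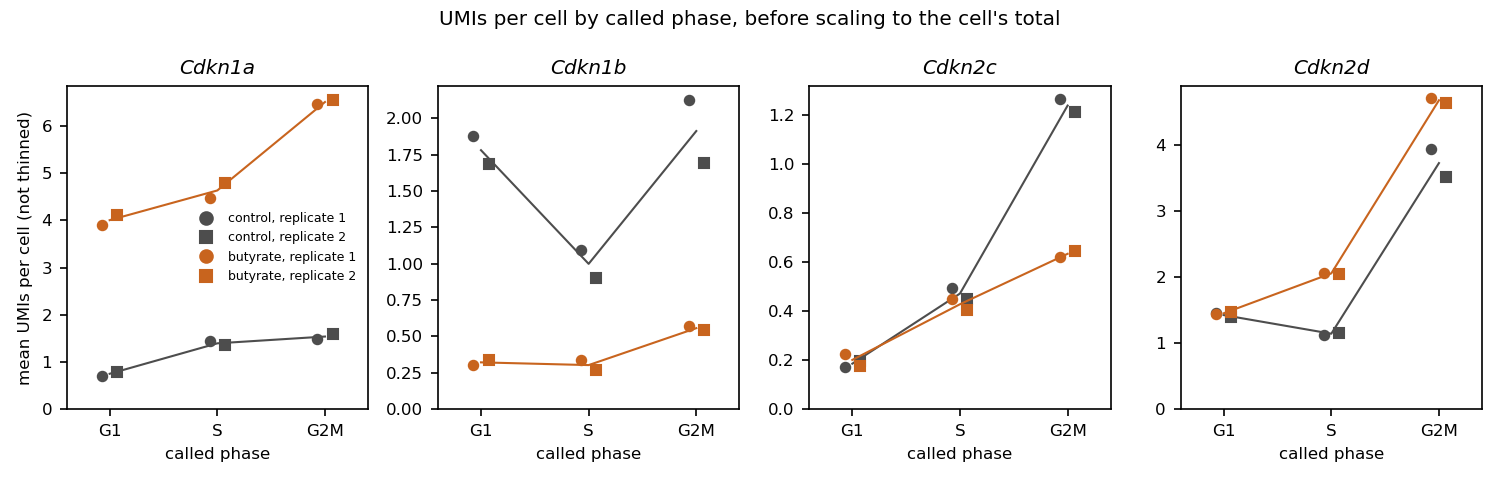
Mean UMIs per cell before thinning (vertical axes, linear, from 0) of Cdkn1a, Cdkn1b, Cdkn2c and Cdkn2d in cells called G1, S or G2M, with 1 point per culture and lines through the group means. Control G1 and G2M cells overlap for Cdkn1b, at 1.88 and 1.68 against 2.13 and 1.70 UMIs, and the 2 groups overlap for Cdkn2c and Cdkn2d in G1 cells.

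Over all phases, Cdkn1a UMIs were about as frequent in cells with a Cdkn1b UMI as in cells without one. In thinned control cells a Cdkn1a UMI was found in 24.5 and 25.4% of cells with a Cdkn1b UMI and in 24.6 and 26.5% of cells without one. Under butyrate the shares were 64.3 and 63.2% of cells with a Cdkn1b UMI and 63.6 and 66.7% of cells without one. The exact binomial intervals overlapped in each library (in butyrate replicate 2, 57.6 to 68.5% against 64.8 to 68.7%), and a single UMI per cell leaves such shares imprecise. In G1 cells under butyrate the shares were 46.3 and 51.6% with a Cdkn1b UMI, from 41 and 64 cells, and 58.2 and 62.6% without one. They were lower with a Cdkn1b UMI in both libraries, with overlapping intervals (30.7 to 62.6% against 52.5 to 63.7%, and 38.7 to 64.2% against 57.3 to 67.6%).

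The 250 bases before the annotated starts of these genes are shown because they are the stretches in which the well-known elements of the Cdkn1a and Cdkn1b promoters are looked for. The sequences are from RefSeq on GRCm38.p6, plus strand, 5′ to 3′. The table of windows used here matched 6 of the 7 members, with 9 starts. Capitals mark GC boxes (GGGCGG, or CCGCCC on the other strand), the usual site of Sp and KLF factors, and p53 half-sites, which were searched on both strands.
Cdkn1a, downstream start, chr17:29093519-29093768: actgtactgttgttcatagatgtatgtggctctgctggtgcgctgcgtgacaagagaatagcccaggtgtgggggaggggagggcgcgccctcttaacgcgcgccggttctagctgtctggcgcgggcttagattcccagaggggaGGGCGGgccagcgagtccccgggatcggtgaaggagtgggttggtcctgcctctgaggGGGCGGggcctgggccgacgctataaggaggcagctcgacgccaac
Cdkn1a, upstream start, chr17:29090729-29090978: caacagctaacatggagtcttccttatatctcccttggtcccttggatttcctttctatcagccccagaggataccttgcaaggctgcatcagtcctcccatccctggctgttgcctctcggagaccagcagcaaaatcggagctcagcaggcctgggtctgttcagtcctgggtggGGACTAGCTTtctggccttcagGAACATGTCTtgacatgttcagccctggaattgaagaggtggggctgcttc
Cdkn1b, chr6:134920151-134920400: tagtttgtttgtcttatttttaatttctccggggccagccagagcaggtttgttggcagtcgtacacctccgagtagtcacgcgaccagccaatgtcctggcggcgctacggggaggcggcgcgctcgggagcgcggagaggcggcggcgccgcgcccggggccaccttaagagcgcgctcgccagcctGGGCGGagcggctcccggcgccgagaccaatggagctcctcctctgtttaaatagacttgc
The window of the downstream Cdkn1a start held 2 GC boxes and no p53 half-site, and the window of its upstream start held 2 p53 half-sites and no GC box. The Cdkn1b window held 1 GC box and 2 CCAAT boxes (CCAAT, or ATTGG on the other strand). Of 32851 RefSeq windows of this length, 32.7% held a GC box, 33.8% a CCAAT box and 7.13% a p53 half-site. Among the windows not printed, that of Cdkn2d held 3 GC boxes, 1 CCAAT box and 1 p53 half-site. The windows of the Cdkn2a starts held 2 and 0 GC boxes, those of the Cdkn2c starts 3 and 0, and that of Cdkn2b none. The Cdkn2a, Cdkn2b and Cdkn2c windows held no p53 half-site. A match describes the letters only, and the 3′ reads do not tell which Cdkn1a start was used.

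Cdkn1c (ENSMUSG00000037664, chromosome 7, 143458339 to 143461050, minus strand) encodes p57 and is an imprinted gene known mainly from development. It was close to absent in control, with 5 and 14 UMIs in all kept cells against 126 and 122 UMIs under butyrate. The levels were 0.092 and 0.208 CPM against 1.96 and 1.91 CPM, without overlap. The log2 fold change was 3.62 (SE 0.28, edgeR adjusted p = 1.74e-08), and 4.36 without control replicate 2. The level under butyrate was nonetheless low: 1.56% (1.11 to 2.12) and 1.31% (0.909 to 1.83) of thinned butyrate cells had a Cdkn1c UMI, against 0.0503 and 0.238% of control cells.

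No phase held the Cdkn1c transcripts alone. G1 cells had 0 and 0 UMIs in control and 10 and 11 under butyrate, S cells 1 and 5 against 26 and 39, and G2M cells 4 and 9 against 89 and 71. Against the 3 counts that a count of 0 allows over the control G1 cells, the butyrate G1 level was 4.33-fold higher. This takes the 21 butyrate UMIs without their counting error. The log2 fold change was 2.83 (SE 0.52) in S and 3.77 (SE 0.32) in G2M cells (edgeR adjusted p = 2.77e-05 and 4.48e-07). The value in S cells depended on the control library used, at 4.10 without control replicate 2 and 2.29 without control replicate 1. Under butyrate, G2M cells had 2.28 and 1.81 CPM, S cells 1.30 and 2.10 CPM and G1 cells 1.52 and 1.48 CPM, and neither S nor G2M cells differed from G1 past the threshold (adjusted p = 0.779 and 0.337). Empty droplets held 1 and 0 Cdkn1c UMIs in control and 7 and 3 in butyrate libraries.

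**Figure D4:**
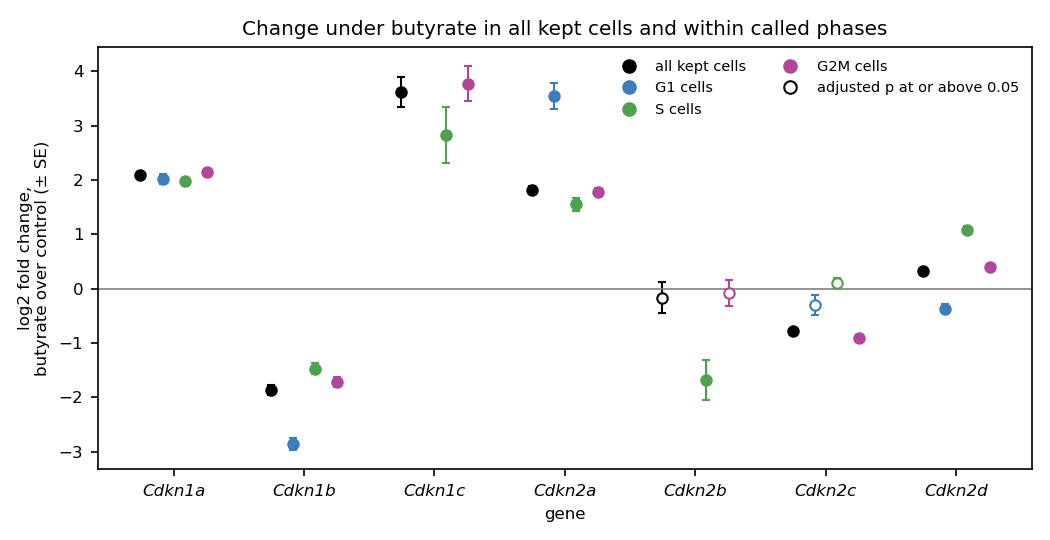
Log2 fold change of each inhibitor gene under butyrate (vertical axis, error bars ± SE) in all kept cells and in cells called G1, S or G2M, with open symbols where the edgeR adjusted p was at or above 0.05. Cdkn1a lies near 2 in every phase, Cdkn1b is lowest in G1 at -2.86, and Cdkn2d lies below 0 in G1 and above 0 in S and G2M; Cdkn1c and Cdkn2b in G1 cells are left out because control G1 cells held 0 to 3 of their UMIs.

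Among the INK4 genes, Cdkn2a (ENSMUSG00000044303, chromosome 4, 89274471 to 89294653, minus strand) encodes p16 and, from an upstream first exon in another reading frame, the Arf protein that stabilises p53. The 2 transcripts share their 3′ end, so these UMIs do not tell them apart. The level of Cdkn2a was 6.30 and 7.01 CPM in control and 22.6 and 24.4 CPM under butyrate. The means were 6.65 ± 0.502 and 23.5 ± 1.29 CPM (SD, n = 2), with no overlap, and the log2 fold change was 1.82 (SE 0.07, edgeR adjusted p = 1.28e-11). The share of thinned cells with a UMI was 4.33 and 3.89% in control and 13.0 and 13.6% under butyrate. Empty droplets gave 4.92 and 8.96 CPM of total UMIs in control and 24.7 and 23.2 CPM in butyrate libraries, close to the 6.71 and 7.55 CPM and the 21.1 and 22.8 CPM of kept cells on that scale.

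Control G1 cells had less Cdkn2a than the other control cells, and under butyrate it did not have less. The control levels were 1.96 and 2.37 CPM in G1 (8 and 12 UMIs), 5.93 and 8.25 CPM in S and 6.65 and 6.98 CPM in G2M cells. The butyrate levels were 22.7 and 27.5 CPM in G1, 20.7 and 21.3 CPM in S and 22.7 and 24.4 CPM in G2M cells. In control, S and G2M cells exceeded G1 by 1.72 (SE 0.29) and 1.64 (SE 0.27) on the log2 scale (edgeR adjusted p = 2.72e-07 and 1.90e-07). Under butyrate, S cells differed from G1 by -0.26 (adjusted p = 0.0273, 0.0789 with library totals and 0.566 without butyrate replicate 2) and G2M cells by -0.10 (95% interval -0.27 to 0.08, adjusted p = 0.411). Within phases the log2 fold change under butyrate was 3.55 (SE 0.24) in G1, 1.55 (SE 0.12) in S and 1.78 (SE 0.07) in G2M cells. The G1 value was 2.70 in cells without a Mki67 or Top2a UMI and 4.53 in G1 cells away from the score limits. The change in G1 was the larger one: S minus G1 was -1.99 (SE 0.30) and G2M minus G1 was -1.74 (SE 0.29), with edgeR adjusted p of 8.38e-08 and 6.30e-07. Away from the score limits these were -2.97 and -2.72, and the control end of both rests on the few UMIs of the G1 cells.

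Cdkn2b (ENSMUSG00000073802, chromosome 4, 89306299 to 89311039, minus strand) encodes p15, which TGF-beta induces in many cells, and lies 11645 bases from Cdkn2a. Its level was 1.87 and 3.17 CPM in control and 1.96 and 2.61 CPM under butyrate, so the groups overlapped. The log2 fold change was -0.17 (95% interval -0.71 to 0.38, edgeR adjusted p = 0.624). It turned to 0.28 without control replicate 2, and without control replicate 1 it was -0.48 with an adjusted p of 0.0226.

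By phase Cdkn2b rested on few UMIs and its values went different ways. G1 cells held 3 and 0 UMIs in control and 16 and 40 under butyrate, a ratio of levels of 11.5 with a counting interval of 3.75 to 57.7 (edgeR adjusted p = 1.35e-08). In cells without a Mki67 or Top2a UMI the levels were 1.89 and 0.669 CPM of total UMIs in control (9 and 4 UMIs) and 1.99 and 3.33 CPM under butyrate (16 and 27 UMIs), a log2 fold change of 1.29 (adjusted p = 0.0302), far smaller than in the G1 calls. S cells held 16 and 43 UMIs in control and 13 and 14 under butyrate, which edgeR put at -1.68 on the log2 scale (SE 0.37, adjusted p = 0.000254; without control replicate 2 it was -1.05, adjusted p = 0.0921). G2M cells held 83 and 170 UMIs against 96 and 113, a log2 fold change of -0.09 (95% interval -0.55 to 0.38, adjusted p = 0.762). Under butyrate the level fell from 2.44 and 5.37 CPM in G1 to 0.650 and 0.754 CPM in S cells, a log2 difference of -2.48 (SE 0.35, edgeR adjusted p = 1.86e-08). The change under butyrate in S and in G2M cells fell below that in G1 in edgeR's interaction test (adjusted p = 4.49e-09 and 4.74e-06). The fitted differences of -5.25 and -3.66 on the log2 scale rest on the 3 and 0 control G1 UMIs, and were -3.46 and -2.05 without control replicate 2 and -11.5 and -9.84 without control replicate 1, which leaves a control G1 sum of 0.

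Cdkn2c (ENSMUSG00000028551, chromosome 4, 109660876 to 109667189, minus strand) encodes p18, an INK4 protein of lymphocytes whose transcript is known to vary through the cell cycle. Its level was 34.5 and 33.7 CPM in control and 19.8 and 20.1 CPM under butyrate. The means of 34.1 ± 0.521 and 19.9 ± 0.226 CPM (SD, n = 2) gave -0.77 as the log2 fold change (SE 0.05, edgeR adjusted p = 3.11e-09). Butyrate cultures also held fewer G2M cells, in which the gene was highest, and the part of this in the change was not tested.

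The change of Cdkn2c passed the test in G2M cells and in neither of the other phases. In G2M cells the level was 39.9 and 39.8 CPM in control and 20.6 and 22.1 CPM under butyrate, which edgeR put at -0.91 on the log2 scale (SE 0.06, adjusted p = 3.46e-08). In S cells it was 18.2 and 17.1 CPM against 19.2 and 18.2 CPM, a log2 fold change of 0.10 (95% interval -0.09 to 0.30, adjusted p = 0.381). In G1 cells it was 13.0 and 14.8 CPM against 12.3 and 9.93 CPM, a log2 fold change of -0.30 (-0.67 to 0.06, adjusted p = 0.145), which passed with library totals (-0.41, adjusted p = 0.0452) and away from the score limits (-0.51, adjusted p = 0.0277). The G2M change differed from the G1 change by -0.56 (SE 0.18, adjusted p = 0.00936). This difference was lost on sums of thinned counts (adjusted p = 0.14), away from the score limits (0.148), without control replicate 1 (0.0659) and without butyrate replicate 1 (0.251). Within control cultures G2M cells exceeded G1 cells by 1.51 (SE 0.11), and within butyrate cultures by 0.95 (SE 0.11), on the log2 scale (edgeR adjusted p = 9.36e-20 and 5.42e-11).

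Cdkn2d (ENSMUSG00000096472, chromosome 9, 21288410 to 21291407, minus strand) encodes p19, an INK4 protein whose transcript also changes through the cycle. Its level was 110.1 and 101 CPM in control and 130.5 and 134 CPM under butyrate, with no overlap. The log2 fold change was 0.33 (SE 0.05, edgeR adjusted p = 1.75e-05), and 0.13 with library totals (adjusted p = 0.0235). Per thinned cell the groups overlapped, with means of 0.974 and 0.856 UMIs for control against 0.931 and 0.907 for butyrate, and 55.1 and 51.1% against 54.5 and 54.2% of cells with a UMI (exact permutation p = 1).

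The direction of the Cdkn2d change depended on phase. In G1 cells the level was 109 and 104 CPM in control and 78.3 and 83.0 CPM under butyrate, which edgeR put at -0.37 on the log2 scale (SE 0.09, adjusted p = 6.55e-05). In S cells it was 41.5 and 43.7 CPM against 88.2 and 91.3 CPM, a log2 fold change of 1.08 (SE 0.06, adjusted p = 3.95e-15). In G2M cells it was 124 and 115 CPM against 156 and 158 CPM, a log2 fold change of 0.39 (SE 0.05, adjusted p = 1.17e-05). The S cells of control cultures were thus the low point of the gene, at -1.32 (SE 0.07) relative to G1, whereas butyrate S cells exceeded butyrate G1 cells by 0.15 (SE 0.06, adjusted p = 0.0229), a difference lost under several alternatives. The change in S exceeded the change in G1 by 1.47 (SE 0.09) and the change in G2M exceeded it by 0.80 (SE 0.08), with edgeR adjusted p of 8.52e-24 and 2.25e-14.

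The fall of Cdkn2d in G1 cells depended on how these cells were called. In cells without a Mki67 or Top2a UMI its log2 fold change was -0.07 (SE 0.09, edgeR adjusted p = 0.535). Per cell before thinning, G1 cells held 1.45 and 1.39 Cdkn2d UMIs in control and 1.43 and 1.46 under butyrate, which overlap. The rise in S cells was seen on this count too, with 1.13 and 1.15 UMIs in control and 2.06 and 2.04 under butyrate. After thinning, 34.2 and 28.4% of control S cells and 44.2 and 42.8% of butyrate S cells had a Cdkn2d UMI.

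The change in S minus that in G1 was above 0 for Cdkn1b and Cdkn2d, below 0 for Cdkn2a and Cdkn2b, and did not pass for Cdkn1a and Cdkn2c. For Cdkn1c it could not be judged, since control G1 cells held none of its UMIs. For Cdkn2c it was 0.43 (adjusted p = 0.073), and it passed with phases from unthinned counts (0.49, adjusted p = 0.0372) and away from the score limits (0.66, 0.0141). Within G1 cells 60.1% of the 10516 genes tested passed, within S cells 57.5% of 11674 and within G2M cells 69.3% of 12772, and the members passed in 5 of 6, 6 of 7 and 6 of 7 cases. All 7 members passed the filter on low counts except in G1 cells, where Cdkn1c did not.

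The partners of the inhibitors were taken from lists chosen with earlier results of these data known. Their counts are for all kept cells unless a phase is named. The counts for all kept cells, here and in the next paragraphs, stand beside 36% of all 13487 tested genes that rose and 35.7% that fell. With library totals 3395 genes rose and 6710 fell. No list was tested against these shares. Of 12 G1 cyclins, their kinases and the phosphatase that activates them, 6 rose and 1 fell (4 and 5 with library totals), with a median log2 fold change of 0.14. Ccne1, the cyclin that activates CDK2 at the start of S phase, rose from 45.3 ± 0.582 to 80.7 ± 0.544 CPM (0.83, edgeR adjusted p = 2.84e-10). The D-type cyclins Ccnd3 (0.49), Ccnd2 (0.39) and Ccnd1 (2.50) rose as well, though Ccnd1 stayed low at 0.383 against 2.23 CPM. Of 11 cyclins and regulators of S and M phase 2 rose and 7 fell (0 and 9 with library totals), with a median of -0.70. Cdc25b, a phosphatase that activates CDK1, fell from 57.2 ± 0.506 to 24.2 ± 0.826 CPM (-1.24). Ccna2 (-0.70), Ccnb1 (-0.78) and Ccnf (-0.72) fell with it, beside the lower share of G2M cells, whose part was not tested. Within G2M cells Cdc25b (-1.16), Ccna2 (-0.59), Ccnb1 (-0.59) and Ccnf (-0.63) fell as well. In G1 cells 6 of 10 tested genes of this list rose and 1 fell (median 0.74), where 60.1% of all genes passed.

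Downstream of the CDKs, 6 of 19 retinoblastoma, E2F and DREAM genes rose and 8 fell (3 and 11 with library totals), with a median of -0.05. The E2F partner Tfdp1 (0.54), E2f4 (0.40) and E2f1 (0.46) rose, and the retinoblastoma relative Rbl2 fell (-0.44). Of 15 genes of p27 protein turnover 5 rose and 8 fell (1 and 9 with library totals). The kinase genes Pim1 and Pim2 went opposite ways, Pim1 from 141 ± 6.44 to 288 ± 15.1 CPM (1.03) and Pim2 from 63.2 ± 0.354 to 35.4 ± 1.55 CPM (-0.84). The ubiquitin ligase scaffolds Cul1 (-0.56) and Cul4a (-0.63) fell.

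Of 10 FOXO and quiescence genes that are known to go with Cdkn1b, 3 rose and 6 fell (2 and 7 with library totals). Foxo1, a transcription factor that induces Cdkn1b in resting lymphocytes, rose from 40.0 ± 1.03 to 88.7 ± 0.102 CPM (1.15, edgeR adjusted p = 1.25e-11) while Cdkn1b fell. Foxo4 (-1.23) and the antiproliferative gene Btg2 (-0.68) fell, and its relative Btg1 rose (0.57). By phase, Btg1 fell in G1 (-0.32) and rose in S (1.24) and G2M cells (0.61). In G1 cells 1 of these 10 genes rose and 7 fell (median -0.56), where 60.1% of all genes passed. In the p53 axis, which can induce Cdkn1a, 11 of 20 tested genes rose and 6 fell (8 and 7 with library totals), with a median of 0.18. The apoptosis gene Pmaip1 (1.29) and the RNA-binding protein gene Zmat3 (1.51) rose, whereas Sesn1 fell (-1.34), so genes known as p53 targets moved in both directions.

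Of 16 Sp, KLF and Myc family genes 9 rose and 5 fell (3 and 5 with library totals). Mxd4, which encodes an antagonist of Myc, fell from 26.4 ± 1.49 to 6.37 ± 0.442 CPM (-2.05, edgeR adjusted p = 2.98e-12). Mycn (-1.36) and Sp1 (-0.83) fell as well, and Myc rose (1.07). By phase, Mycn rose in G1 cells (1.25) and fell in S (-1.64) and G2M cells (-1.36). All 4 class I histone deacetylase genes changed (2 higher and 2 lower, also with library totals), where 71.8% of all genes did. Hdac1 rose from 94.99 ± 0.271 to 187 ± 1.61 CPM (0.98) and Hdac3 rose (0.37), while Hdac8 (-0.49) and Hdac2 (-0.15) fell. Of 13 Polycomb genes, whose proteins silence the Cdkn2a locus, 6 rose and 5 fell (2 and 7 with library totals). Bmi1, the best known repressor of Cdkn2a, fell from 10.6 ± 0.411 to 5.69 ± 0.472 CPM (-0.89) and Rnf2 fell (-0.49), while Phc2 (0.32) rose. By phase, Bmi1 fell in S (-1.08) and G2M cells (-0.96) and did not pass in G1 cells (0.13, edgeR adjusted p = 0.69). Rnf2 fell and Phc2 rose in each phase.

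The neighbours of 3 members on the chromosome were read for comparison. Mtap, next to Cdkn2a, rose from 36.4 ± 2.18 to 43.6 ± 0.987 CPM (0.26, edgeR adjusted p = 0.000428), a call lost with library totals (0.057, adjusted p = 0.356). Near Cdkn1c, the noncoding RNA gene Kcnq1ot1 fell from 131 ± 2.45 to 71.7 ± 0.26 CPM (-0.87, adjusted p = 1.04e-10). Phlda2 had no UMI in either control culture and 0.264 and 0.219 CPM under butyrate, and Nap1l4 did not pass (-0.01, adjusted p = 0.854) but fell with library totals (-0.21, adjusted p = 0.000498). Of the 7 listed neighbours 4 had enough UMIs to be tested, and 2 rose and 1 fell (1 and 2 with library totals).

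Genes whose level was most like that of a member over the 12 sums of culture and phase were named as a description, with no test, since these sums share libraries and depth. They were drawn from the 4678 genes (4679 for Cdkn2a) whose mean reached 20 CPM. For Cdkn1a they were Gzmc (Pearson r 0.995), Chchd2 (0.992) and Cd63 (0.992). For Cdkn1b they were Tsc22d4 (0.996), Itch (0.991) and Sash3 (0.991), and for Cdkn2a they included Mapkapk2 (0.993) and Snf8 (0.992). The nearest genes to Cdkn2c were Ncaph2 (0.953), Grk6 (0.945) and Myo9b (0.943), and to Cdkn2d Ubb (0.943), Serinc3 (0.935) and Rab24 (0.926).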

How the data were processed

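The deposited matrices hold raw UMI counts per gene and droplet barcode, not normalised, for 6794880 barcodes per library, per the file headers. Cell Ranger 4 and Seurat 4.3, with the mm10 build, are the tools listed in the submitters' processing notes. No annotation release or handling of introns is given in the sources used here. The members and gene lists were chosen with earlier results of these data known.

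Cells were barcodes with at least 10% of the 99th percentile of UMIs of the top 3000 barcodes, at least 500 genes and under 10% mitochondrial UMIs. No doublet was removed. Cells of at least 8000 UMIs were thinned to 8000 and phases were called with scanpy 1.11.5 from 43 S and 54 G2M genes. Within 0.05 of a score limit lay 8.55 and 8.45% of cells in control, against 17.6 and 18.2% with butyrate. UMIs were summed per library, or per library and phase, and tested in edgeR 4.0.16 (R 4.3.3; TMM, filterByExpr, robust quasi-likelihood F test), after the scripts were tested on simulated data. Phase differences used a model of 12 sums with the culture as a block and 4 residual degrees of freedom. SE is the size of the log2 fold change over the root of its F value, and 95% intervals use a normal quantile. CPM by phase was scaled over the 12 sums. The same replicate number marks the same mouse, from the library names in the labels. Deviations of cultures of a mouse from their group means correlated weakly across 13487 genes (Pearson 0.0594, Spearman 0.0531). Named genes beside the members were up to 4 per list with the smallest p, and for likeness the 3 with the highest r; 2 of the genes so named are not reported here. Coordinates are from GENCODE M21.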

Additional observations from a re-analysis of the deposited data

Results flagged for a closer look

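The change under butyrate differed between phases for 5 of the 7 members in edgeR's interaction test over the 12 sums. Of all 12280 genes tested, 38% passed for S minus G1 and 37.6% for G2M minus G1. In S relative to G1 the difference was 1.40 for Cdkn1b, -1.99 for Cdkn2a, -5.25 for Cdkn2b and 1.47 for Cdkn2d on the log2 scale. In G2M relative to G1 it was 1.19 for Cdkn1b, -1.74 for Cdkn2a, -3.66 for Cdkn2b, -0.56 for Cdkn2c and 0.80 for Cdkn2d. The values of Cdkn2b rest on 3 and 0 UMIs in control G1 cells, and the call of Cdkn2c was kept under 5 of 9 alternatives. Cdkn1c, with no UMI in control G1 cells, could not be judged. The G1 cells that both sets refer to differed between groups in depth and in S score genes. The G2M cells differed in G2M score genes. The part of these differences was not tested.

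Cdkn1a was also high in barcodes outside the cells compared. Empty droplets of the butyrate libraries gave 135 and 146 CPM of total UMIs, against 44.6 and 46.0 CPM in control. Barcodes left out for a mitochondrial share of at least 10% gave 221 and 213 CPM under butyrate, against 46.0 and 47.0 CPM in control.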

How the results depend on the processing

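The count of tested member values under alternative settings leaves out Cdkn1c wherever control G1 cells are used. It also leaves out Cdkn2b in the phase contrasts within control cultures and in G2M against G1 within butyrate cultures. Of the 592 values counted, 531 kept their direction and their side of the threshold. Cdkn1a, Cdkn1b, Cdkn1c, Cdkn2a, Cdkn2c and Cdkn2d kept theirs in all kept cells under each of 12 fits, with log2 fold changes of 1.89 to 2.18, -2.07 to -1.74, 3.19 to 4.36, 1.62 to 2.00, -0.97 to -0.71 and 0.13 to 0.38. With the mouse as a replicate block, 4958 genes were higher and 4931 lower in all kept cells, Cdkn2d was 0.33 and Cdkn2b -0.14, and no call of a member changed there or within phases. Cdkn2b in all kept cells ran from -0.48 to 0.28 without 1 library each, turning sign without control replicate 2 and without butyrate replicate 1 (0.03); in G2M cells it was 0.37 and 0.03 without these and as low as -0.41 without control replicate 1.

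Interaction tests on sums of thinned counts called fewer genes: 1634 in place of 2465 higher in S minus G1, and 1658 and 1396 in place of 2499 higher and 2123 lower in G2M minus G1. With library totals 2053 genes were higher and 5616 lower in S cells, in place of 3441 and 3275, and 2679 and 3710 in G1 cells, in place of 3185 and 3137.

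Other values that turned sign were small, and the cause was not tested. Cdkn2c was 0.059 in cells without a Mki67 or Top2a UMI and -0.14 in S cells with library totals. For Cdkn1a, S minus G1 in control was 0.085 with library totals and 0.12 on thinned counts, and ran from -0.20 to 0.0059 without 1 library; G2M minus G1 in control was 0.026 and 0.11 with these settings, and in butyrate 0.065, 0.14 and, from unthinned phases, 0.020, with -0.054 to 0.0059 without 1 library. The change of Cdkn1a in S minus G1 was 0.051 without the 5% deepest cells (chosen after seeing the data), 0.066 without control replicate 1 and 0.0047 without butyrate replicate 1. G2M minus G1 in butyrate was -0.045 from unthinned phases, -0.10 on thinned counts, -0.12 away from the score limits and -0.035 to 0.17 without 1 library for Cdkn1b, and 0.043 on thinned counts for Cdkn2a. S minus G1 in butyrate ran from -0.23 to 0.51 without 1 library for Cdkn1c. The Cdkn2b share difference was 0.135 percentage points at 4000 UMIs in place of -0.159. Members with few UMIs, Cdkn1c and Cdkn2b, are limited by depth in G1 cells.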

Other observations

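Barcodes left out for a high mitochondrial share were read for the other members as well, in CPM of total UMIs. Cdkn1b was 120 and 97.3 CPM in control and 22.4 and 31.1 CPM in butyrate libraries, and Cdkn2c was 24.6 and 23.0 CPM against 1.60 and 7.18 CPM, from 53 and 71 against 1 and 6 UMIs. Cdkn2a was 3.72 and 6.49 CPM against 12.8 and 9.57 CPM, from 8 to 20 UMIs per library. Cdkn2d was 79.0 and 71.4 CPM against 62.4 and 57.4 CPM.

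In empty droplets Cdkn2d was 149 and 149 CPM in control and 122 and 136 CPM in butyrate libraries, the opposite order to that in kept cells. Cdkn1b was 66.6 and 66.5 CPM against 17.2 and 20.6 CPM, and Cdkn2c 43.4 and 47.6 CPM against 20.7 and 19.3 CPM.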
